A study of Mus musculus with 2 samples.

Results

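The mitochondrial genes of the mouse and 3 nuclear copies of them on chromosome 1 were followed through RNA-seq of hippocampus. Members were the 37 genes whose symbol starts with mt- together with the pseudogenes Gm28661, Gm28437 and Gm10925, so that 40 of 55536 annotated genes were included. They comprised 2 rRNAs, 13 protein-coding genes (called mRNAs below), 22 tRNAs and 3 unprocessed pseudogenes, as the annotation types them. The 3 pseudogenes were selected on their high counts in these libraries, so their levels and differences below are a description. They were part of the fit across all genes, and nothing is read from their p-values.

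Each library came from a male mouse of B6CASTF1/J, an F1 of the C57BL/6J and CAST/EiJ strains. Both were adult, at 8 to 10 months of age, and no agent or engineered allele is named in the labels. The tissue is labelled as a layer of hippocampus, and 300 ng of total RNA entered each library after reduction of ribosomal RNA, with a kit that keeps the strand and with ERCC spike-ins (synthetic control RNAs). Replicate 1 was animal 2 and replicate 2 was animal 4. Both form 1 group, so the design holds no comparison of conditions, and the labels give both animals the same donor entry. With 1 library per animal, the animal, its dissection, the extraction and the library cannot be told apart.

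The mitochondrial genome is transcribed from both strands as long precursors. The tRNAs lie between the rRNAs and mRNAs, and their excision releases most of the mature RNAs. The mRNAs encode core subunits of respiratory complexes I, III and IV and of the ATP synthase (complex V), and the rRNAs form the core of the mitochondrial ribosome. Pieces of mitochondrial DNA that have entered the nuclear genome are called nuclear mitochondrial sequences. A young copy can match its source so closely that a short read fits both places.

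The authors deposited abundance estimates from 2 programs that divide reads shared between features. The tables of the first give 2 estimates, the expected count and the posterior mean count with its posterior SD. The second gives 1 estimated count per transcript, summed here per gene. The first held 23458117 expected counts in replicate 1 and 29584307 in replicate 2, and the second held 25213972 and 31237997. The 6 hippocampal markers were present at a summed level of 1834 and 1876 TPM (the unit of level here, counts per effective length scaled to a common sum). The 9 markers of choroid plexus epithelium, a tissue next to the hippocampus, summed to 17.9 TPM in replicate 1 and 1792 TPM in replicate 2, and none had 0 counts. Ttr accounted for most of it, with 8.68 and 1703 TPM. The part of this tissue in any difference between the 2 libraries below was not tested. In such bulk samples, fewer cells of a type and less RNA per cell cannot be told apart.

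The 3 nuclear copies lie together in a block of 7 copies at chr1:24611535-24616197 of the mm10 assembly, which spans 4663 bases. All 7 are annotated on the minus strand, and the order of the block follows that of the mitochondrial genome. Relative to the mitochondrial coordinates the spacing was unchanged for 5 copies and shifted by 1 base for Gm10222 and Gm28439. Within 20 kb of the block the annotation held 1 other gene, the pseudogene Tubb4b-ps2.

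Gm28661 (chr1:24614885-24615565) is a copy of mt-Co2, which encodes subunit 2 of cytochrome c oxidase (chrM:7013-7696, plus strand). Gm10925 (chr1:24613974-24614651) copies mt-Atp6, a membrane subunit of the ATP synthase (chrM:7927-8607, plus strand). Gm28437 (chr1:24613189-24613971) copies mt-Co3, subunit 3 of cytochrome c oxidase (chrM:8607-9390, plus strand). Over their whole lengths of 681, 678 and 783 bases, these 3 copies carried 0 substitutions and 0 gaps against the mitochondrial genes in the reference. The annotated mitochondrial genes only run further at the 3′ end, by 3, 3 and 1 bases. The ends are shown because they are the only letters in which each annotated pair differs. They are given 5′ to 3′ on the strand of the gene, from the mm10 reference transcripts of GENCODE M21, and capitals mark the mitochondrial bases past the end of the annotated copy.
mt-Co2, chrM:7637-7696, plus strand: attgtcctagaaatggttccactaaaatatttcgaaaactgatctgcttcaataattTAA
Gm28661, chr1:24614885-24614941, minus strand: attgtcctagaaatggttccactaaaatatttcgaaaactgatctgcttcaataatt
mt-Atp6, chrM:8548-8607, plus strand: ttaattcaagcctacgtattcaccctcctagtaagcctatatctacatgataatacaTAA
Gm10925, chr1:24613974-24614030, minus strand: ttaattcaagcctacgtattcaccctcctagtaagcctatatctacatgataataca
mt-Co3, chrM:9331-9390, plus strand: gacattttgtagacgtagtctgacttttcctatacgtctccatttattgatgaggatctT
Gm28437, chr1:24613189-24613247, minus strand: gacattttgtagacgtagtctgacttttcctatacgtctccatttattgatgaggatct
In mt-Co2 and mt-Atp6 the added letters are a whole stop codon. In mt-Co3 they are the first base of one, which the poly(A) tail of a mitochondrial mRNA completes.

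Counted in windows of 100 bases, 582 of 585 windows of mt-Co2 (99.5%), 579 of 582 of mt-Atp6 (99.5%) and 684 of 685 of mt-Co3 (99.9%) also occurred in the annotated copy. In words of 31 bases compared with all annotated transcripts, none of the 654 words of mt-Co2 was found in that gene alone. The share found in the gene alone was 0.46% for mt-Atp6 and 0.13% for mt-Co3. By contrast it was 100% for mt-Rnr1 and mt-Nd1, 97.3% for mt-Rnr2, 93.5% for mt-Cytb, 92.6% for mt-Nd6, 92.5% for mt-Atp8, 86.5% for mt-Nd2 and 83.2% for mt-Nd5. These 8 genes have no annotated copy in the chromosome 1 block and are called genes with no copy below. mt-Atp8 shared 13 of its 174 words with the annotated copies there. It lies between mt-Co2 and mt-Atp6, whose copies kept their spacing. Unannotated bases between those copies were not compared.

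The other 4 copies of the block, which are not members, match mt-Co1, mt-Nd3, mt-Nd4l and mt-Nd4. Gm28438, Gm10222 and Gm28439 carried 0 substitutions over 342, 294 and 876 aligned bases. Gm29216 covers the 3′ end of mt-Co1. The local alignment left out its first 9 bases, and over the other 483 it found 1 substitution, A1066T, with positions counted from the first base of mt-Co1. The first 43 bases of the copy are shown beside the same stretch of mt-Co1, with the substituted base in capitals. Letters of the first 9, outside the alignment and in lower case, differ too.
mt-Co1, chrM:6381-6423, plus strand: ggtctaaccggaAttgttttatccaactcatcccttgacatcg
Gm29216, chr1:24616155-24616197, minus strand: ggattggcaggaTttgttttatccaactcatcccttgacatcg
mt-Nd4 shared 846 of its 1348 words of 31 bases with the chromosome 1 copies, and 37.2% were found in the gene alone. mt-Co1 shared 449 of 1515 with those copies and 714 with other transcripts, and 36.1% were found in the gene alone. The share found in the gene alone was 1.89% for mt-Nd3 and 1.12% for mt-Nd4l, which are copied almost end to end.

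For these 3 pairs, most of the first program's expected counts went to the nuclear copy in both libraries. The pair of mt-Co2 and Gm28661 had 2309 and 59683 expected counts in replicate 1, and 5546 and 91503 in replicate 2. Gm28661 therefore held 96.3% and 94.3% of the pair. The 2 libraries were close in this division.

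For mt-Atp6 and Gm10925 the expected counts were 11386 and 45539.95 in replicate 1, and 31282 and 56483 in replicate 2. The copy's share was 80% in replicate 1 and 64.4% in replicate 2. mt-Co3 and Gm28437 had 10398 and 59187 in replicate 1, and 45307 and 61195 in replicate 2. Here the share of the copy differed most between the libraries, at 85.1% and 57.5%.

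The posterior mean of the same program moved reads from all 3 copies to the mitochondrial genes in both libraries. The share on Gm28661 was 77.7% and 67.4%, on Gm10925 69.9% and 58.6%, and on Gm28437 61.4% and 49.3%, each for replicates 1 and 2. The second program placed 87.8% and 85.3% on Gm28661, 50.2% and 39.7% on Gm10925, and 49.5% and 53.3% on Gm28437. Among the 3 pairs, Gm28661 held the highest share of its pair in all 3 estimates of both libraries. No such order held for Gm10925 and Gm28437.

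The mitochondrial gene's count thus depended on the estimate. The highest of the 3 estimates for mt-Co2 was 5.99 times the lowest in replicate 1 and 5.70 times in replicate 2. The same ratio was 2.19 and 1.51 for mt-Atp6, and 3.23 and 1.19 for mt-Co3. The sum of gene and copy moved far less, with ratios of 1.12 and 1.11 for the mt-Co2 pair, 1.13 and 1.12 for the mt-Atp6 pair, and 1.04 in both libraries for the mt-Co3 pair. Within the first program the sums of the 2 estimates differed by at most 0.36 counts.

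**Figure D1:**
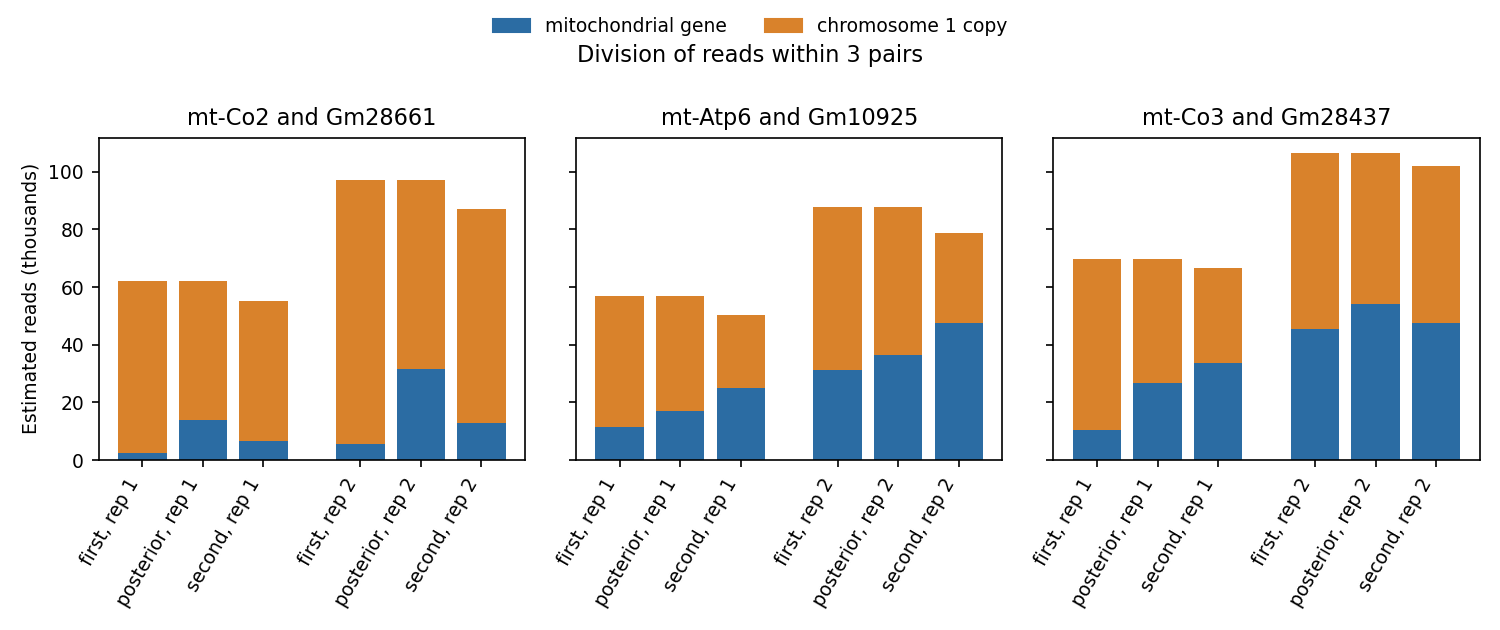
Estimated reads (in units of 1000) of 3 mitochondrial genes (blue) and their chromosome 1 copies (orange), stacked, for 2 libraries (rep 1, rep 2) and 3 estimates: expected count (first), posterior mean (posterior) and the second program (second). The border within a bar moves between estimates, from 96.3% of reads on Gm28661 down to 39.7% on Gm10925, while the height of the bars stays within a ratio of 1.13 for a pair and library.

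In the other 4 pairs the copies held smaller shares of the pair, and the programs did not favour the same copies. The pairs also differ in how much of the gene is copied. Of the 100-base windows, 26.3% of mt-Co1 and 60.75% of mt-Nd4 occurred in the copy. For mt-Nd3 and mt-Nd4l it was 97.6% and 98.5%, so a short match does not go with every small share. The cause of the smaller shares was not tested. The 3 member copies were also selected on high counts. As a level by expected counts, Gm29216 had 4696 and 4756 TPM in replicates 1 and 2. Gm29216 held 16.2% and 13.96% of its pair with mt-Co1 by expected counts, but 1.61% and 0.25% by the second program. Gm28439 held 0 expected counts beside mt-Nd4, but 8.11% and 15.2% by the second program. Gm10222 went the other way, with 6.55% and 24.8% of its pair with mt-Nd4l by expected counts and 0 by the second program. Gm28438 stayed at 0 expected counts and at 0.75% or less beside mt-Nd3.

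The first program's own posterior SD was 5% or more of the posterior mean for 4 of the 7 mitochondrial genes that have a copy. For mt-Co2 it was 23.0% of the posterior mean in replicate 1 and 13.5% in replicate 2. It was 12.9% and 7.67% for mt-Atp6, 12.9% and 9.40% for mt-Co3, and 11.2% and 11.8% for mt-Nd4l. Gm28661 had 6.60% and 6.53%, Gm10925 5.53% and 5.43%, and Gm28437 8.09% and 9.66%.

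All 3 copies and 4 of the 7 mitochondrial genes with a copy were at 5% or more in both libraries, and mt-Nd3, mt-Nd4 and mt-Co1 were at 0.39% or less. Of the 8 rRNA and mRNA genes with no copy, 7 had a posterior SD of 0, and mt-Nd2 had 0.00132% or less. Among all annotated genes with 1000 or more posterior counts, 4648 in replicate 1 and 5431 in replicate 2, a value of 5% or more occurred in 0.452% and 0.571%. A posterior SD of 0 was common there, at 83.5% and 83.4%.

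**Figure D2:**
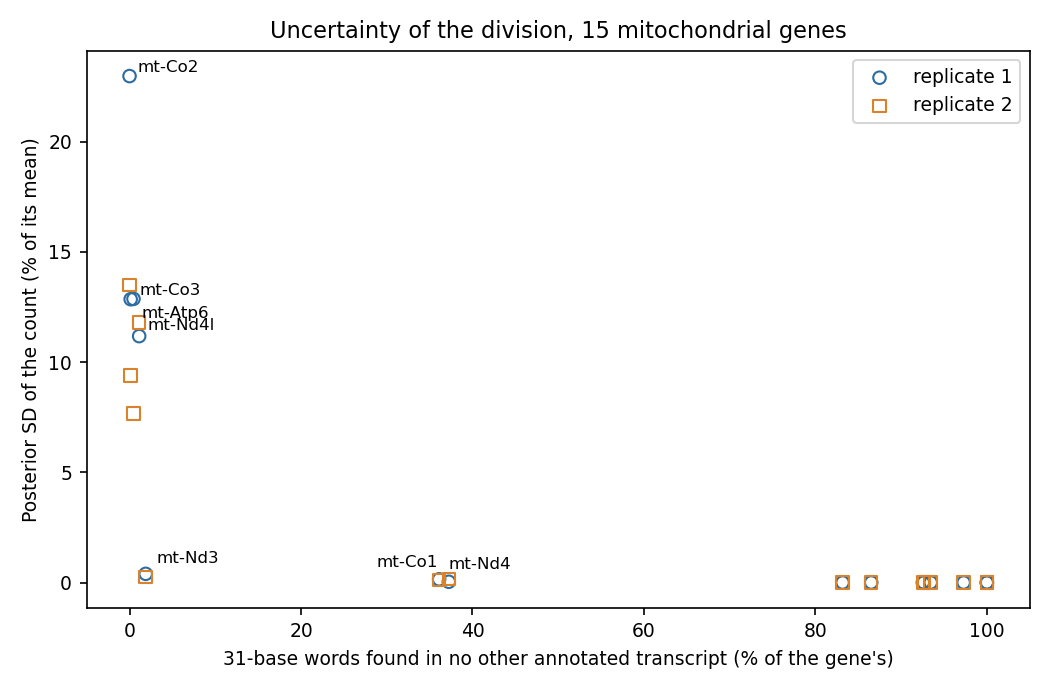
Posterior SD of the count (percent of its mean, y axis) against the share of a gene's 31-base words found in no other annotated transcript (percent, x axis), for the 2 rRNAs and 13 mRNAs in replicate 1 (circles) and replicate 2 (squares). mt-Co2, mt-Co3, mt-Atp6 and mt-Nd4l stand at 7.67% to 23.0% at the left edge, and mt-Nd3 lies near 0 despite a share of 1.89%. The 8 genes without an annotated copy lie at the bottom right.

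The deposited TPM bounds surround the posterior mean TPM, which lay within them for all 18 members with counts in both libraries. For mt-Co2 the posterior mean was 1599 TPM in replicate 1, with bounds of 956.2 to 2365, and 2743 TPM in replicate 2, with bounds of 2099 to 3342. The TPM from expected counts, 280.4 and 499.3, lay below these bounds in both libraries. For mt-Atp6 and mt-Co3 it lay below them in replicate 1 only. Of the genes with 1000 or more posterior counts, 5 in replicate 1 and 3 in replicate 2 had an expected-count TPM below the bounds, and the members made up 3 and 1 of them. The others were Notch1 and Lasp1, then Slit2 and 3110039I08Rik.

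The rRNAs were the most abundant members. mt-Rnr1, the 12S rRNA of the small ribosomal subunit, had 29734 TPM in replicate 1 and 34308 in replicate 2 (mean 32021 ± 3235, SD, n = 2). mt-Rnr2, the 16S rRNA of the large subunit, had 43732 and 49875 TPM (46804 ± 4344, SD, n = 2). The bounds of the 2 rRNAs were apart in both libraries. The ratio of mt-Rnr2 to mt-Rnr1 on the TPM scale was 1.47 and 1.45.

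The second program gave a wider ratio, of 1.75 in both libraries. It placed 0.814 and 0.808 times the first program's count on mt-Rnr1 but 1.05 and 1.06 times on mt-Rnr2. These rRNA levels were measured after reduction of ribosomal RNA, and how far that step removed mitochondrial rRNA was not tested.

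As a share of all expected counts, the 2 rRNAs took 5.42% in the first library (5.42 to 5.43, 95% interval by Wilson's method) and 6.64% in the other (6.63 to 6.65). The 13 mRNAs took 1.35% (1.34 to 1.35) and 1.85% (1.84 to 1.85), and the 3 copies took 0.701% and 0.707%. Shares of rRNA and mRNA differed between the libraries by more than counting error, which is all these intervals cover, since reads that carry no molecular identifier can repeat a molecule. The share of the 3 copies differed little by expected counts, but by the second program it was 0.423% and 0.512%, beside 1.49% and 1.92% for the mRNAs. By expected counts, with the copies' reads added to the mRNAs, the share became 2.05% and 2.55%, and all 40 members held 7.47% and 9.19%.

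Among the mRNAs the order of levels depended on whether reads of the copy were counted. By the TPM from expected counts mt-Co1, the catalytic subunit of cytochrome c oxidase, was highest, with 6604 and 7955 TPM. mt-Co2, a subunit of the same enzyme, ranked 12 of 13 with 280.4 and 499.3 TPM. mt-Co3, also of that enzyme, had 1078 and 3482 TPM, which ranked 7 in replicate 1 and 3 in replicate 2. These 3 subunits of complex IV thus ran from the highest mRNA to the lowest but 1.

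Placing the reads of each copy on its mitochondrial gene, an alternative chosen after the values were seen, drew the 3 subunits together. The level of mt-Co1 was then 7878 and 9245 (8561 ± 967, SD, n = 2), that of mt-Co2 7527 and 8737 (8132 ± 855), and that of mt-Co3 7214 and 8186 (7700.06 ± 687), all on the TPM scale. Their means differed by less than 1 SD between neighbours in the order. mt-Co2 moved from rank 12 to 2 in both libraries, and its level by a factor of 26.8 and 17.5.

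The other members with a copy changed less. mt-Atp6 went from 1389.7 and 2831 TPM to 6948 and 7942 (7445 ± 703, SD, n = 2), a factor of 5 and 2.81, and ranked 4. mt-Nd4l, a small membrane subunit of complex I, went from 1058 and 853.8 TPM to 1132 and 1136. By the second program with copies added, mt-Co2, mt-Co1, mt-Co3 and mt-Atp6 were again the 4 highest, at 6768, 6641, 6642 and 6196 in replicate 1 and at 7935, 7821, 7553 and 7214 in replicate 2, in that gene order.

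By expected counts the nuclear copies themselves were listed at levels above most mitochondrial mRNAs. Gm28661 had 7284 and 8280 TPM, Gm28437 6145 and 4710.5 TPM, and Gm10925 5587 and 5138 TPM. Gm28661 thus lay above mt-Co1 in both libraries by this estimate, whereas Gm28437 and Gm10925 lay below it. By the posterior mean Gm28661 lay below mt-Co1, with 5596 and 5706 TPM against 6287 and 7666. By the second program it also lay below, with 5986 and 6813 TPM against 6534 and 7801. Because these annotated copies match their sources letter for letter in the reference, transcripts of the block and of the mitochondrial genome cannot be told apart by a read that lies within them. The genome sequences of the animals were not analysed here.

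The mRNAs with no copy are given by their expected-count TPM and were ordered by the bounds. mt-Cytb, the cytochrome b subunit of complex III, was highest with 3064 and 3588 TPM. It was followed by mt-Nd1 with 2417 and 3153, by mt-Nd5 with 1053 and 1245, and by mt-Nd2 with 1032 and 1097, all of complex I. mt-Atp8, the small subunit of the ATP synthase, had 833.9 and 826.5 TPM. mt-Nd6 was lowest with 162.3 and 213.9 TPM, and it is the only mRNA encoded on the minus strand. Bounds of neighbours in this order were apart in both libraries, except for mt-Nd5 and mt-Nd2. The bounds belong to the posterior mean TPM. For 6 of the 8 genes with no copy, rRNAs included, the expected-count TPM lay above them in each library, so the order by bounds is not a test of the values printed here.

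The remaining complex I genes have a copy in the block that is not a member. mt-Nd4 had 1856 and 1997 TPM, and mt-Nd3 had 1612 and 1599.9 TPM. With copies added, the 7 complex I genes had a median level of 1132 and 1245 on the TPM scale, against 7527 and 8737 for the 3 genes of complex IV. mt-Cytb of complex III lay between them. Of the complex V genes, mt-Atp6 was listed near the complex IV genes and mt-Atp8 below mt-Nd2 by the first program. The level of mt-Atp8 rests on an effective length of 104 bases, and by the second program it had 0 and 1 counts. The annotated genes mt-Atp8 and mt-Atp6 overlap by 43 bases, and mt-Nd4l and mt-Nd4 by 7 bases. Whether the same RNA carries both genes of such a pair was not tested. Their levels are thus those of annotated genes and cannot be read as abundances of separate RNAs.

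**Figure D3:**
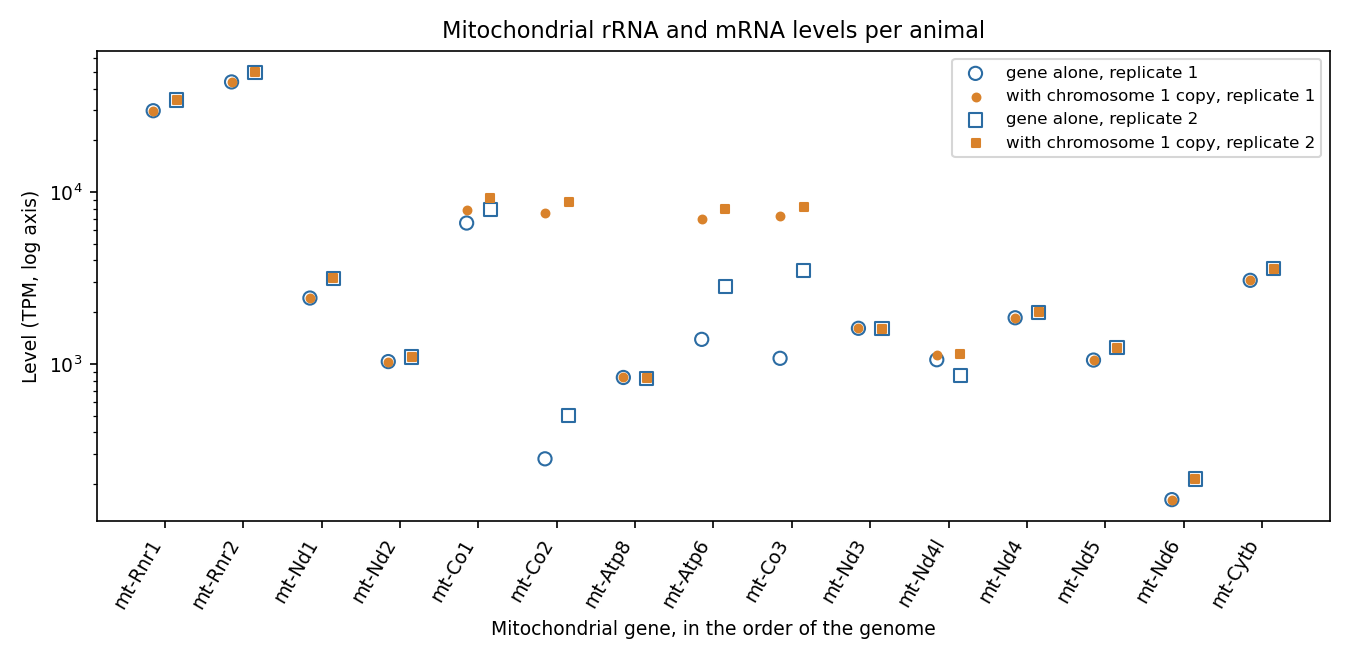
Levels of the 2 rRNAs and 13 mRNAs in the order of the mitochondrial genome (TPM, log axis), for the gene alone (open) and with reads of its chromosome 1 copy added (filled), in replicate 1 (circles) and replicate 2 (squares). Adding the copy lifts mt-Co2 from 280.4 and 499.3 to 7527 and 8737, beside mt-Co1. The 8 genes without an annotated copy stay in place.

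The total of the rRNAs over that of the mRNAs, both in TPM, was 3.27 in replicate 1 and 2.87 in replicate 2 by the first program's expected counts. With the reads of all 7 chromosome 1 copies placed on their genes it was 1.72 in both libraries. The second program gave 2.34 and 2.28 without the copies and 1.57 in both with them.

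mt-Atp8 was counted by the first program alone. It had 1223 and 1635 expected counts, against 0 and 1 by the second program. The annotated gene is 204 bases long, and the length of the RNA that carries it was not measured here. Its effective length, the number of positions at which a fragment could start, was 104 bases in the first table and 44.4 in the second. Its last 43 bases are also the start of mt-Atp6, read in another frame, and are marked in capitals.
mt-Atp8, positions 105 to 204, chrM:7870-7969, plus strand: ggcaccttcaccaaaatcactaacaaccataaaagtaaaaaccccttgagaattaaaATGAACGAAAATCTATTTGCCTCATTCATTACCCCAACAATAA
The capitals open with the start codon of mt-Atp6. mt-Nd4l, annotated at 297 bases, was the other short gene with a low second count. The sum with its copy was 0.590 and 0.631 times that of the first program. For the other 7 genes with no copy, the second count was 0.808 to 1.06 times the first. Which program is nearer the abundance of mt-Atp8 was not tested.

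The 22 tRNAs were listed at 0 counts in all 3 estimates of both libraries. They carry the amino acids used in mitochondrial translation, and 8 of them lie on the minus strand. The shortest, mt-Ts2, a serine tRNA of 59 bases, and the longest, mt-Tl1, a leucine tRNA of 75 bases, are shown for the size of the targets.
mt-Ts2, chrM:11613-11671, plus strand: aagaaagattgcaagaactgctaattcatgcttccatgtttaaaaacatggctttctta
mt-Tl1, chrM:2676-2750, plus strand: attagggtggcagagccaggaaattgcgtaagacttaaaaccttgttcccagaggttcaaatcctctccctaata
A count of 0 allows up to 3 counts, or 1.28e-05% and 1.01e-05% of the expected counts in replicates 1 and 2. This limit does not hold for molecules, because the effective length was 0 for all 22 in the first program and 19.3 to 21.99 bases in the second. No feature under 100 bases had any count, with 0 of 28583 in the first program's gene tables and 0 of 2451 transcripts in the second's. In the first program all 28583 had an effective length of 0, so their 0 counts follow from length and tell nothing of abundance. Of transcripts of 100 bases or more in the second program's tables, 57.6% and 57.5% had counts. Levels of the mitochondrial tRNAs were therefore not detectable in these tables.

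Between the 2 libraries, the 3 mitochondrial genes with a member copy had the largest log2 ratios of the members tested by expected counts. The same held by the posterior mean, with 0.88 for mt-Co2, 0.77 for mt-Atp6 and 0.69 for mt-Co3. By the second program mt-Co2 (0.68) and mt-Atp6 (0.67) were again the highest, but mt-Co3 had 0.25. Of the 40 members, 18 had enough counts to be tested, and the 22 that did not were the tRNAs. By edgeR on expected counts with Benjamini-Hochberg adjustment, 3 were higher in replicate 2 and 0 lower, beside 0.806% of all 16123 genes called in either direction. mt-Co3 differed by a log2 ratio of 1.81 (adjusted p = 9.05e-08 by edgeR), mt-Atp6 by 1.14 (adjusted p = 0.00476) and mt-Co2 by 0.95 (adjusted p = 0.000491). Over the 6 alternatives that changed the estimate, scaling, filter or copies as planned, the edgeR adjusted p ranged from 1.02e-08 to 1 for mt-Co3, from 0.00231 to 1 for mt-Atp6 and from 0.000476 to 1 for mt-Co2. These p-values compare 2 libraries, not conditions, and the members were chosen with these differences known.

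The log2 ratio was above 0 for 15 of the 18 tested members, with a median of 0.32 beside a median of all tested genes near 0. A difference of 2-fold or more was seen for mt-Co3 and mt-Atp6, beside 6.83% of all tested genes. Gm28661 had a log2 ratio of 0.30, Gm10925 of 0.00 and Gm28437 of −0.27. Each copy's ratio thus lay below that of the gene it matches by expected counts. By the second program the order was the opposite for Gm28437, with 0.47 against 0.25 for mt-Co3.

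With the reads of the 3 copies placed on their genes, the 3 ratios lay within the range of the other mitochondrial genes. They were 0.33 for mt-Co2, 0.31 for mt-Atp6 and 0.30 for mt-Co3. The other 12 rRNA and mRNA genes ran from −0.19 for mt-Nd4l and 0.11 for mt-Atp8 to 0.50 for mt-Nd1 and 0.52 for mt-Nd6, with mt-Rnr1 at 0.32 and mt-Rnr2 at 0.31. In that fit edgeR called 0 of 15 members, with 1 of them (mt-Nd6) at an unadjusted p under 0.05, beside 0.782% of all genes. No member differed by 2-fold or more, beside 6.82% of all genes.

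Neither of the other estimates gave a called member. By the posterior mean edgeR called 0 of 18, with 4 at an unadjusted p under 0.05, beside 0.545% of all genes, and by the second program 0 of 17, with 3 at an unadjusted p under 0.05, beside 0.683%. None was 2-fold apart in either, beside 6.56% and 9.43% of all genes. The log2 ratio of mt-Co3 was 1.81 by expected counts, 0.69 by the posterior mean and 0.25 by the second program. That of mt-Nd4l changed sign, from −0.19 by expected counts and −0.10 by the posterior mean to 0.28 by the second program and 0.12 with all 7 copies merged.

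Scaling to the ERCC spike-ins lowered the median of all genes to −0.23. Under it 11 of 18 members were above 0 with a median of 0.09, so their median stood 0.32 above that of all genes, as with the main scaling. The sign of the smaller ratios thus depends on the scaling, and mt-Co3 alone was called and 2-fold apart, beside 0.583% and 8.6% of all genes.

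**Figure D4:**
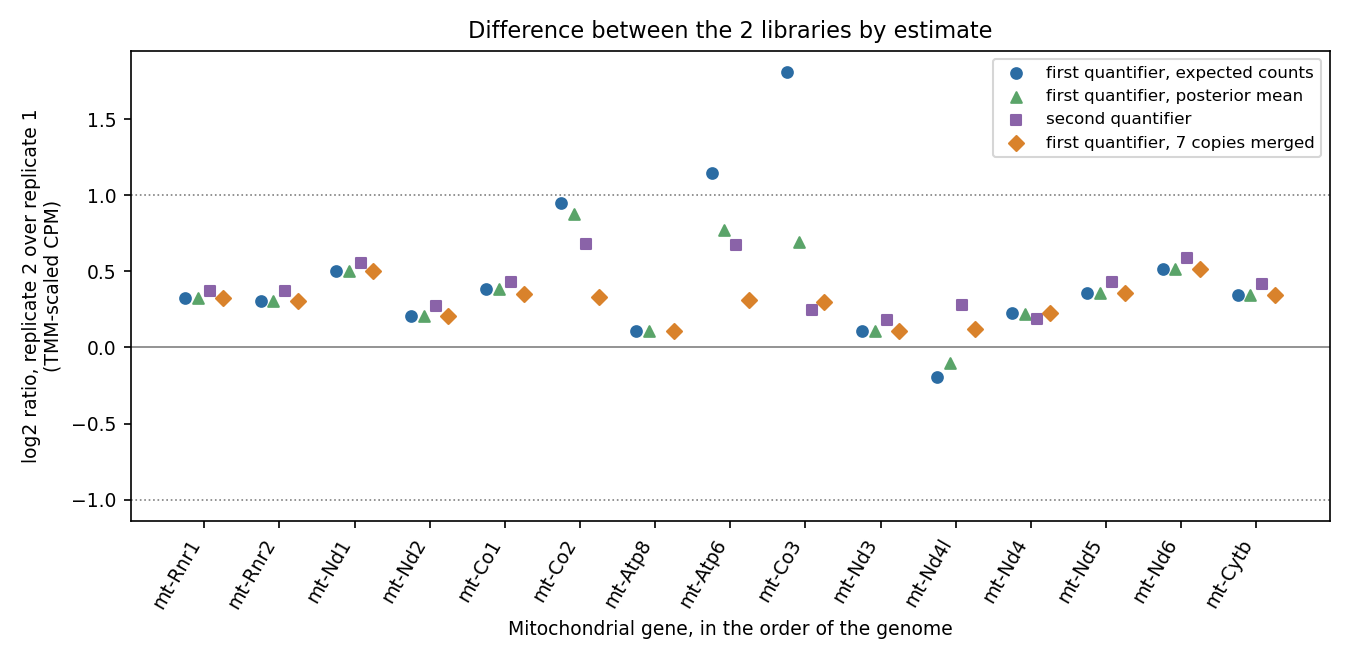
Log2 ratio of replicate 2 over replicate 1 (TMM-scaled CPM, y axis) for the 2 rRNAs and 13 mRNAs in genome order, by expected counts (circles), posterior mean (triangles), the second program (squares) and expected counts with 7 copies merged into their genes (diamonds). Dotted lines mark 2-fold. mt-Co3 spreads from 1.81 to 0.25 across estimates, while mt-Rnr1 and mt-Rnr2 stay near 0.3, and mt-Atp8 has no square because it was too low in the second program.

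The nuclear genes that serve the mitochondrial genome were measured beside it. The 20 genes of mitochondrial transcription and replication ranged from 1.72 TPM for Polg2, the accessory subunit of the mitochondrial DNA polymerase, to 44.7 TPM for Polg, its catalytic subunit. Polrmt, the mitochondrial RNA polymerase, had 28.6 and 21.6 TPM. By edgeR 0 of the 20 differed between the libraries after adjustment, 0 had an unadjusted p under 0.05, none was 2-fold apart, and the median log2 ratio was −0.13. Over all tested genes 0.806% were called and 6.83% were 2-fold apart, so for a list of this size these counts are near the background.

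Of 36 listed genes of mitochondrial RNA processing and stability, 35 were found by symbol. They ranged from 1.99 TPM for Ybey, an rRNA-processing endonuclease, to 77.2 TPM for Dhx30, an RNA helicase. By edgeR 0 of the 35 were called, 0 had an unadjusted p under 0.05 and 0 were 2-fold apart, beside the same 0.806% and 6.83% over all genes, and the median log2 ratio was 0.06. Counts of the second program gave 0 calls in this list and in the list of transcription and replication.

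The mitochondrial aminoacyl-tRNA synthetases and the amidotransferase subunits listed with them, 22 in all, charge the tRNAs. Lars2, which charges leucine, was highest in replicate 1 and lower in replicate 2, with 610.1 and 20.7 TPM from 31431 and 1406 counts. It was the 1 gene of the list that was called or 2-fold apart, beside 0.806% called and 6.83% 2-fold apart over all genes. From a count of 1, nothing is read about the list as a whole. Lars2 had a log2 ratio of −4.79 (adjusted p = 1.69e-49 by edgeR) and of −4.94 by the second program. Whether the reads placed on Lars2 came from its mRNA was not tested. Wars2, for tryptophan, was lowest with a mean of 3.95 TPM. The median log2 ratio of the list was −0.02, and mt-Tl1 and the other tRNAs had no counts to set beside it.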

How the data were processed

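The libraries were sequenced from total RNA with ribosomal RNA reduced. Per the submitters' processing notes, the deposited tables were made on mm10 with the GENCODE M21 annotation. The first program's tables have the column names of RSEM and the second's those of kallisto, and the sources used here name neither program. The deposited expected counts and posterior mean counts are estimated reads per gene, unscaled between libraries, in which a program has split shared reads. The deposited TPM values divide by effective length and sum to a common total, and the deposited bounds surround the posterior mean TPM at a level unknown here. Sequences, coordinates and gene types came from the GENCODE M21 reference. Copies were aligned with biopython 1.88.

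Levels with a copy added are the summed counts over the mitochondrial gene's effective length, on the library's TPM scale. Expected counts, rounded to whole numbers, were compared with edgeR 4.0.16 in R 4.3.3, using TMM scaling, an intercept-only design and trended dispersion. The p-value of a gene came from its residual deviance by the chi-square distribution (1 degree of freedom). Benjamini-Hochberg adjustment ran over all genes with 1 CPM or more in at least 1 library. The threshold was 0.05, and log2 ratios used a prior count of 2. With 2 libraries no permutation test can reach that threshold. In 3 simulated data sets of 16123 genes, 8.67% of genes with a 2-fold change were recovered, 64.7% of those with 4-fold and 88.7% of those with 8-fold, and no error from dividing reads was simulated. Alternatives were the other estimates, another scaling, no filter, merged copies and leaving out each replicate.

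All members were named, except that of the tRNAs, all at 0, only the shortest and longest were named, for their length. Of the gene lists, the highest, the lowest and any 2-fold apart were named, with Polrmt added after its values were seen. Of the 3 glial markers, summed at 1726 and 1648 TPM, edgeR called 0, as of the 6 hippocampal markers (0 at an unadjusted p under 0.05 in both lists). Of the 9 choroid plexus markers, 8 were called higher in replicate 2. Over all tested genes 0.806% were called in either direction. The members and lists were chosen with earlier results of these data known.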

Additional observations from a re-analysis of the deposited data

How the results depend on the processing

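The mRNA share went from 1.60% to 2.30% with the 3 copies' reads added, and the share of the 3 copies went from 0.704% to 0.565% by the posterior mean and 0.467% by the second program. Leaving out each replicate gave 5.42% to 6.64% for rRNA, 1.35% to 1.85% for mRNA, 0% for tRNA and 0.701% to 0.707% for the copies. The count of members called between the libraries was 3, and 3 with RLE size factors or no filter. Over all genes 0.806% were called, 0.806% with RLE and 0.458% with no filter. The count of members called was 1 with ERCC scaling, 0 by the posterior mean, 0 by the second program, 0 with 3 copies merged and 0 with all 7 merged. This last setting was chosen after seeing the data. Over all genes the share called was 0.583%, 0.545%, 0.683%, 0.782% and 0.782% in that order. The count 2-fold apart was 2, and 2 with RLE or no filter, beside 6.83%, 6.83% and 14.7% of all genes. It was then 1, 0, 0, 0 and 0 in the same order, beside 8.6%, 6.56%, 9.43%, 6.82% and 6.82%. Merging removes the copies from the genes tested; for the other settings the cause was not tested. Of the 18 member levels above 0, 6 moved by over 1 SD by the posterior mean, 13 by the second program and 7 with annotated in place of effective length, while the 22 tRNA levels at 0 could not move. No paired analysis was possible because both libraries belong to 1 group. Leaving out a replicate leaves 1 library and no test between libraries. What depth limits could not be told for the tRNAs, listed at 0 like every feature under 100 bases.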

Other observations

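Outside the chromosome 1 block, 16 further annotated genes shared words of 31 bases with a mitochondrial gene. Gm13340 shared 685 words with mt-Co1 and had 8.28 and 22.2 expected counts, against 69.3 and 87.5 by the second program. Gm13341 shared 308 words with mt-Co2 and had 12.7 and 25.0 expected counts, against 1.02 in both libraries by the second program. Gm13339, which shared 136 words with mt-Nd2, was at 0. Compared with the 59683 and 91503 expected counts on Gm28661, these copies drew few reads.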
